A study of Mus musculus with 5 samples.

Results

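CD8-negative T cells of the atherosclerotic aortic arch were taken as cells that held at least 2 of the T cell receptor complex transcripts Cd3e, Cd3d, Cd3g and Trac and no unique molecular identifier (UMI) of Cd8a or Cd8b1. The members were thus chosen by measured values. Cells with a value of C1qa above 2 on the deposited natural-log scale, with a Cd79a or Cdh5 UMI, or with at least 3 of the cell cycle transcripts Mki67, Top2a, Birc5, Ube2c and Cenpf were left out. The rule selected 191 of 18260 cells. Of the 620 cells that met it before the CD8 condition, the other 429 held a CD8 transcript and are called CD8 T cells.

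The cells came from 5 droplet 3′ libraries of DAPI-sorted live cells, made from pooled arches (n = 6 by the study's design text) of mice on normal chow for 28 weeks. Both groups were Apoe-/-, so lacked apolipoprotein E. By their labels, the 2 Apoe-/- libraries carried Oasl1+/+. The 3 others were labelled Oasl1-/-Apoe-/-, a genotype that lacks the promoter and exon 2 of Oasl1 in every cell type. Oasl1 encodes an interferon-induced repressor of Irf7 translation. Nothing in the labels says that the libraries of a group came from separate pools, so p-values measure only the spread between these libraries, which may be technical.

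T cells recognise antigen through a receptor that signals through the CD3 chains. Most carry an αβ receptor, with CD4 on helper and regulatory cells and CD8 on cytotoxic cells, whereas γδ T cells use a receptor built from the Trdc and Tcrg genes and often carry neither coreceptor. Type I interferons act on interferon-stimulated response elements in the promoters of their target genes, and raise MHC class I presentation.

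Because many of the genes compared here are interferon targets, the promoter windows of 3 of them are shown, from RefSeq (GRCm38.p6), 250 bases before to 50 after the gene start and written 5′ to 3′ along the gene. Capitals mark matches to GAAANNGAAA, the core of that response element, or to its reverse complement; overlapping matches run together.
Isg15, chr4:156200769-156201068, minus strand: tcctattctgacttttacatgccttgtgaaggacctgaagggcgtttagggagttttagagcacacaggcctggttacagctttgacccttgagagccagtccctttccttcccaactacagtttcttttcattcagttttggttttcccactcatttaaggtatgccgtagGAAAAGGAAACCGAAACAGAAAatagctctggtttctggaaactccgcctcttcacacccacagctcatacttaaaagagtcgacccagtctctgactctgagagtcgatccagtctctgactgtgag
Ifit3, chr19:34583279-34583578, plus strand: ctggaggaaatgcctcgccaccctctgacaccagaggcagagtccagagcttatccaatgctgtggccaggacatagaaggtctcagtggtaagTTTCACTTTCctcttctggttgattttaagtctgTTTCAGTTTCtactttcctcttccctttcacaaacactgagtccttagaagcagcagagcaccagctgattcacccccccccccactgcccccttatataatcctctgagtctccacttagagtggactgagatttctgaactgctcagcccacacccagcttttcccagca
Bst2, chr8:71537423-71537722, minus strand: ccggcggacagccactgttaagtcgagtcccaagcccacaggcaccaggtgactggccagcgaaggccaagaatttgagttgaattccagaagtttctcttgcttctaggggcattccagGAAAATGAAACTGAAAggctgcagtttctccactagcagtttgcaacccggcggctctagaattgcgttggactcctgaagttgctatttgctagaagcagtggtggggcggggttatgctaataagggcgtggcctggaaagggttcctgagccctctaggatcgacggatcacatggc
Isg15 encodes a ubiquitin-like modifier, Ifit3 an RNA-binding antiviral protein and Bst2 a tether of budding virions. Their windows held 3, 2 and 2 matches. Of the 26 tested genes of the interferon list used below, 20 had a window and 10 of these held the motif (50.0%), against 3.99% of all 27025 gene symbols. The window of H2-D1 held none, which says only that these letters are not in that window.

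Library totals ranged from 16959976 to 19813039 UMIs over 3212 to 4338 cells, and the members' median was 1525 UMIs, against 1901 in CD8 T cells and 4970 in smooth muscle cells. Whole-library Oasl1 totals were 27 and 16 UMIs for Apoe-/- and 299, 257 and 315 for the label Oasl1-/-Apoe-/-. The 3′ tags lie outside the deleted part, so they do not show whether that part is present. The deletion also takes in the promoter, yet the transcript was the more abundant in the libraries labelled as lacking it. Whether the labels are right was not tested, and group names below are therefore those of the labels. Among members, 3 cells held an Oasl1 UMI. The barcodes of 7 members recurred in another library, none of them as a member there.

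The label T cell was checked against genes that the rule did not use. Trbc1 or Trbc2, the receptor β constant genes, were present in 174 members (91.1%, 95% Wilson interval 86.2 to 94.4), against 97.0% of CD8 T cells and 0.498% of smooth muscle cells. Ptprc, the leukocyte gene CD45, had a UMI in 71 members (37.2%) and in 53.4% of CD8 T cells. The rule itself fixed at least 2 of its 4 transcripts: 52 members held exactly 2, 95 held 3 and 44 held all 4. Just outside it, 90 cells held exactly 1, of which 17 had a Ptprc UMI. The 5 neutrophil markers were at 0. Of 7 natural killer cell markers, 3 were at 0 in all members, among them the receptor Ncr1. Summed, the 7 came to 11.97 and 4.04 UMIs per 10000 in Apoe-/- members against 5.16, 3.98 and 1.66 under the other label. Gzma, on the cytotoxic list below as well, is among the 7. Transcripts of other cells were present at low level and differed by library. Summed over 8 markers, smooth muscle transcripts were 37.4 and 32.8 UMIs per 10000 in Apoe-/- members against 26.8, 3.30 and 21.8 under the other label. Summed macrophage markers came to 5.004 and 5.58 against 16.3, 6.62 and 20.8, and dendritic cell markers to 1.23 and 1.03 against 17.8, 2.62 and 2.61. Red cell transcripts reached 217.5 in Apoe-/- replicate 2 and 110.9 in replicate 2 labelled Oasl1-/-Apoe-/-, with 0.483 to 3.403 in the other libraries. The part of these transcripts in the gene differences was not tested.

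The members were a mixture of at least 3 transcript patterns, which overlapped in part, and those with Cd4 were few. Cd4, the helper coreceptor, had a UMI in 32 cells (16.8%, 95% interval 12.1 to 22.7), against 0.466% of CD8 T cells and 0.0863% of smooth muscle cells. After each cell was thinned to 1000 UMIs, which kept 168 members, the share was 10.1%. Of the 32 cells, 26 held Trac, 16 held Tnfrsf4, the costimulatory receptor OX40, and 15 held Izumo1r, the folate receptor 4 of regulatory and anergic cells. Ctla4, an inhibitory receptor, was seen in 6 of them. Foxp3 was not analysed here.

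A further group carried γδ receptor transcripts. Trdc, the δ constant gene, was present in 24 members and Tcrg-C1, a γ constant gene, in 32, and 35 cells held at least 1 of them. Trac was present in 1 of the 24 cells with Trdc, and none of the 32 cells with Cd4 held Trdc or Tcrg-C1. The receptor β constant genes did not set these cells apart. Trbc2 was seen in 29 of the 35 and Trbc1 in 13, against 28 and 17 of the 32 cells with Cd4. Of the 24 cells with Trdc, 19 also held Il17a or Cd163l1, which encode the cytokine interleukin 17A and a scavenger receptor of γδ cells. One or both of these genes were seen in 26 members and in none of the 429 CD8 T cells, 2 of which held Trdc (0.466%). Among the 35 cells with Trdc or Tcrg-C1, 32 held Cxcr6, a tissue-homing chemokine receptor, 29 held Tmem176b and 19 held Il7r, the interleukin 7 receptor, whereas 1 held Tnfrsf4. These gene pairs were picked with values in view, and no test was made of them. Tcrg-C2 and Tcrg-C4 were not specific to such cells: with them included, 25.1% of members and 35.7% of CD8 T cells held a γδ receptor transcript.

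The largest group carried genes of cytotoxic cells. Nkg7, a granule protein, or Ccl5, a chemokine stored in granules, was present in 108 members (56.5%, interval 49.5 to 63.4), against 98.8% of CD8 T cells and 1.55% of smooth muscle cells. Thinned to 1000 UMIs, the shares were 53.6%, 97.4% and 0.489%. This group overlapped with the Cd4 group, since 16 of the 32 cells with Cd4 (50.0%) held Nkg7 or Ccl5. Of the 108 members, 88 held neither Cd4, Trdc, Tcrg-C1 nor these type 17 genes. Gzmk, a granzyme, was seen in 28 of the 88 and Cd28, a costimulatory receptor, in 57. CD8 T cells held a median of 4 CD8 UMIs, 47 of the 429 held exactly 1, and when 418 of them were thinned to 1000 UMIs, 54 (12.9%) had none left. How many members were CD8 T cells with uncounted CD8 transcripts was not tested.

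The last 35 members held none of Cd4, Trdc, Tcrg-C1, the type 17 genes, Nkg7 or Ccl5. Gata3, the regulator of type 2 helper cells and a marker of group 2 innate lymphoid cells, was present in 14 of them. Areg, a tissue repair growth factor, and Tmem176b were in 7 each, while Gzmb, Gzmk and Klrd1 were at 0. Tnfrsf4 and Icos, both costimulatory receptors, were in 19 each but were not particular to these cells. Tnfrsf4 was also in 16 of the 32 cells with Cd4, and Icos in 36 of the 88. Ccr7, a lymphoid chemokine receptor, was seen in 9 of all members.

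**Figure D1:**
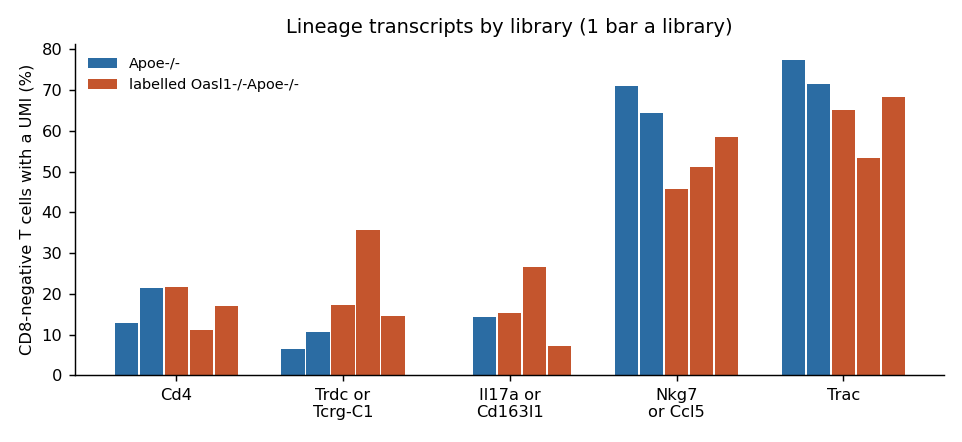
Percentage of CD8-negative T cells with at least 1 UMI of the named genes, with 1 bar for each library, Apoe-/- in blue and labelled Oasl1-/-Apoe-/- in orange. Cells with Trdc or Tcrg-C1 ranged from 6.45% to 35.6% of members, and those with Nkg7 or Ccl5 from 45.7% to 71.0%.

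The composition was then compared between the groups. With 2 libraries against 3, the exact two-sided permutation test has 10 arrangements and cannot give a p below 0.1, so no share could pass 0.05. Cells with a Cd4 UMI made up 12.9% and 21.4% of members in the Apoe-/- libraries and 21.7%, 11.1% and 17.1% in those labelled Oasl1-/-Apoe-/-, which overlap (exact permutation p = 1.0). Cells with a transcript of Trdc, Tcrg-C1, Tcrg-C2 or Tcrg-C4 made up 12.9% and 17.9% against 21.7%, 42.2% and 24.4%, a difference of 14.1 percentage points without overlap (exact permutation p = 0.2). Thinned to 1000 UMIs, the shares were 6.90% and 20% against 19.5%, 38.5% and 17.6%, which overlap (exact permutation p = 0.6). Without replicate 2 labelled Oasl1-/-Apoe-/-, the highest library, the difference was 7.68 points. Trdc alone was seen in 0 and 3 cells against 7, 9 and 5. In Apoe-/- replicate 1, however, Trdc, Il17a and Cd163l1 were listed at 0 in every cell of the library, not only in members. In that library 115 genes were seen in exactly 2 cells and 409 in exactly 3, so that genes of very few cells appear to have been set to 0 before deposit, and a 0 for these genes there is not read as absence.

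Cells with Nkg7 or Ccl5 made up 71.0% and 64.3% against 45.7%, 51.1% and 58.5%, without overlap (exact permutation p = 0.2). Thinned to 1000 UMIs they made up 69.0% and 56.0% against 43.9%, 46.2% and 58.8%, which overlap. Cells with Ccl5, whether or not they held Nkg7, made up 61.3% and 57.1% against 41.3%, 44.4% and 43.9%, without overlap (exact permutation p = 0.1), and once thinned 58.6% and 52.0% against 39.0%, 41.0% and 44.1%.

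The members' share of the aorta depended on the denominator. They were 31 and 28 cells in the Apoe-/- libraries and 46, 45 and 41 in the others, or 0.760% and 0.645% of all cells against 1.35%, 1.40% and 1.27%. The group means were 0.703% ± 0.0811 (SD, n = 2) and 1.34% ± 0.0661 (SD, n = 3), without overlap (exact permutation p = 0.1). Cells with a Ptprc UMI numbered 352 and 343 against 651, 563 and 633. Of these, members made up 3.125% and 3.21% against 2.61%, 2.66% and 2.69%, the opposite order (exact permutation p = 0.1), from 11 to 17 members a library. Of T cells they were 33.3% and 35.9% against 31.5%, 28.7% and 28.1% (exact permutation p = 0.2). With cells thinned to 1000 UMIs before the rule was applied, the shares of T cells were 42.9% and 46.8% against 34.1%, 33.3% and 30.1%, so that the difference went from -5.20 to -12.3 points (exact permutation p = 0.1). CD8 T cells made up 1.34% ± 0.260 (SD, n = 2) of all cells in Apoe-/- and 3.23% ± 0.276 (SD, n = 3) in the others. All shares rest on sorted live cells, and intervals cover counting error only.

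**Figure D2:**
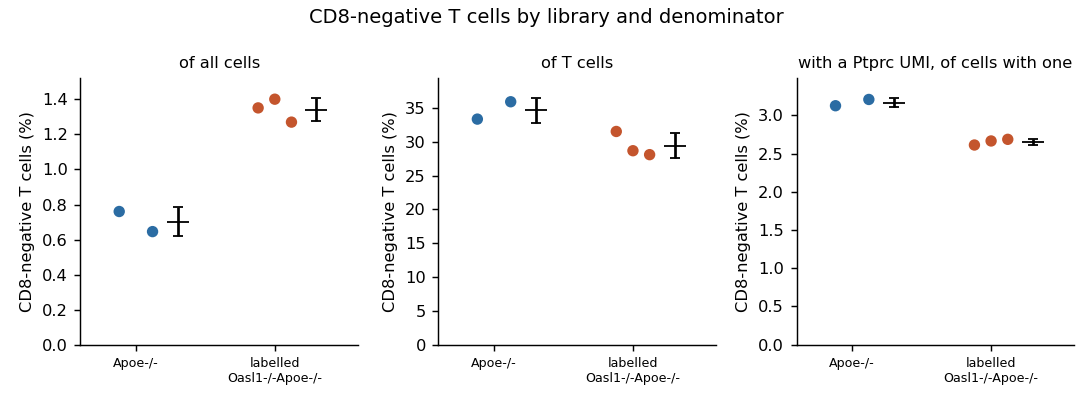
CD8-negative T cells as a percentage of all cells and of T cells, and those with a Ptprc UMI as a percentage of all cells with one, with 1 point for each library and the group mean ± SD in black. The libraries labelled Oasl1-/-Apoe-/- lie above the Apoe-/- libraries in the first panel, at 1.27% to 1.40%, and below them in the others.

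Expression was compared between the groups on the mean UMIs per 10000 over a library's members (CP10K), as log2 of CP10K plus 0.5, with limma and Benjamini-Hochberg adjustment over the 2554 genes with a mean of at least 0.5. Log2 differences are those of the libraries labelled Oasl1-/-Apoe-/- minus Apoe-/-, and their median over all tested genes was 0.03. In a mixed population, such a mean alone does not tell a lower level per cell from fewer cells that express a gene. Of the tested genes 3 passed an adjusted p of 0.05 (0.117%), of which 1 rose and 2 fell, and 235 had an unadjusted p under 0.05.

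H2-D1 (chromosome 17, 35262730 to 35267499, GRCm38), a classical MHC class I heavy chain, held 25.5 and 21.7 CP10K in the Apoe-/- libraries and 42.9, 37.0 and 42.6 in the others. It rose by a log2 difference of 0.78 (SE 0.136, limma adjusted p = 0.030). Its close paralogue H2-K1, with which reads may be shared, showed 22.95 and 29.25 against 23.9, 27.2 and 24.6 CP10K, which overlap. Tpt1 (chromosome 14, 75845093 to 75848525), an abundant growth-linked protein, held 75.2 and 79.4 against 49.9, 46.3 and 40.2 CP10K and fell by 0.76 on the log2 scale (adjusted p = 0.0062). Actg1 (chromosome 11, 120345690 to 120348542), the cytoplasmic γ-actin, held 48.0 and 51.2 against 26.2, 25.0 and 27.9 CP10K and fell by 0.90 (adjusted p = 0.0062). Tpt1 and Actg1 have pseudogene copies that may take part of their reads. Actg1 is also abundant in smooth muscle, whose summed markers were 37.4 and 32.8 against 26.8, 3.30 and 21.8 CP10K. The library at 3.30 held 25.0 CP10K of Actg1 and the library at 26.8 held 26.2. The part of smooth muscle transcripts in the Actg1 difference was not tested. All 3 calls were lost on summed UMIs (limma adjusted p = 0.165 to 0.248; limma-voom adjusted p = 0.0836 to 0.251), and that of H2-D1 with median-centred libraries (adjusted p = 0.0641) or at least 3 of the 4 T cell genes (0.0869). In cells with a Cd4 UMI the log2 differences were 0.19 for H2-D1 (adjusted p = 0.951), -0.65 for Tpt1 and -1.14 for Actg1 (both 0.760). They were also lost without Apoe-/- replicate 1 (limma adjusted p = 0.0958 to 0.103), Apoe-/- replicate 2 (0.229 to 0.294) or replicate 1 labelled Oasl1-/-Apoe-/- (0.130 to 0.675), and without replicate 3 of that label those of H2-D1 (0.407) and Tpt1 (0.0965) were lost.

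**Figure D3:**
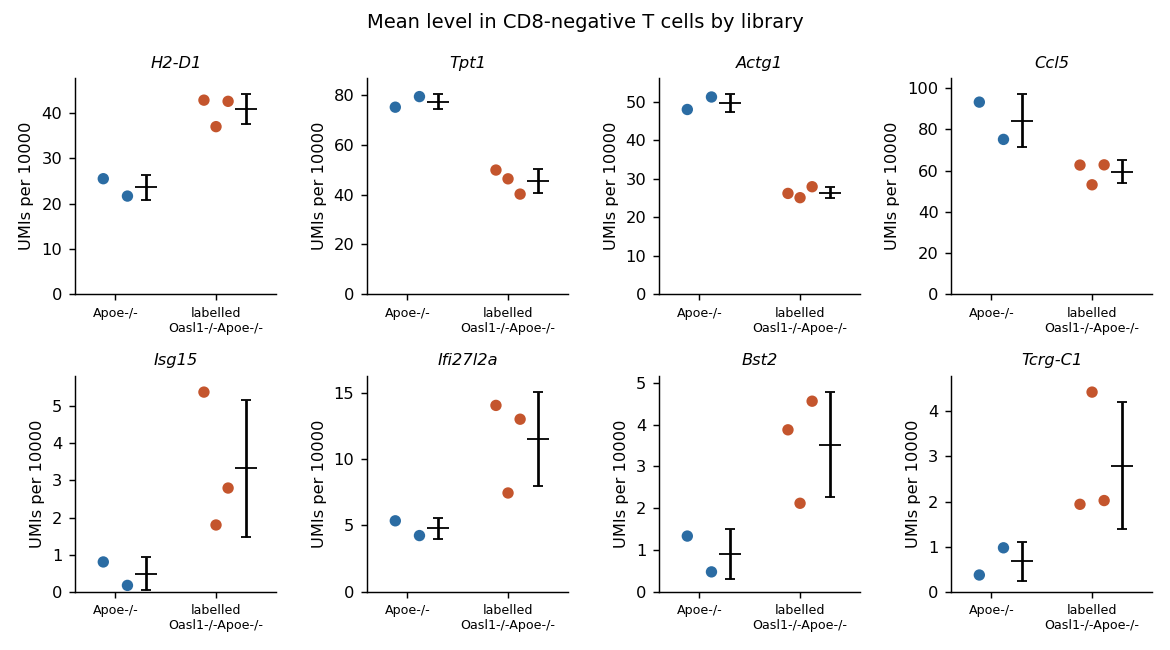
Mean level in CD8-negative T cells, in UMIs per 10000, with 1 point for each library and the group mean ± SD in black. The 3 libraries labelled Oasl1-/-Apoe-/- lie above both Apoe-/- libraries for H2-D1 (37.0 to 42.9 against 21.7 and 25.5) and below them for Tpt1 and Actg1.

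Genes of the type I interferon list were mostly higher in the libraries labelled Oasl1-/-Apoe-/-, though none passed the threshold. Of 67 listed genes, 26 were tested and 0 passed, 13 were higher and 1 lower at an unadjusted p under 0.05, against 5.44% and 3.76% of all tested genes. Both groups' libraries stood fully apart for 12 of the 26 upward and for 3 downward, against 13.8% and 12.7% of all tested genes. The median log2 difference of the list was 0.58. Isg15 held 0.803 and 0.171 CP10K against 5.38, 1.80 and 2.80, a log2 difference of 1.92 (SE 0.411, adjusted p = 0.122) resting on 73 UMIs. Ifi27l2a, an interferon-induced gene, held 5.34 and 4.23 against 14.03, 7.43 and 12.99 CP10K (1.14, adjusted p = 0.174). For both genes the second library labelled Oasl1-/-Apoe-/- was the lowest of its group. Without it, 30 genes passed the threshold, and 7 of them were on the interferon list, Isg15 among them (adjusted p = 7.8e-05). Leaving out the lowest library of its group favours such calls. The 30 also held markers of other cells. Among them were Hba-a1, Hba-a2, Hbb-bs and Hbb-bt of red cells, Dcn and Lum of fibroblasts, H2-Aa and Cd74 of dendritic cells and Cst3 of macrophages. Irf7, the interferon regulator, was at 1.43 CP10K ± 0.354 (SD, n = 2) in Apoe-/- against 0.726 ± 0.375 (SD, n = 3), a log2 difference of -0.70 (adjusted p = 0.570).

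Among 22 MHC class I presentation genes, 19 were tested, H2-D1 passed, and 5 were higher and 0 lower at an unadjusted p under 0.05, against 5.44% and 3.76% of all tested genes. B2m, the light chain of MHC class I, held 72.2 and 59.0 against 88.4, 77.0 and 82.2 CP10K (0.33, adjusted p = 0.286), and Psmb8, an immunoproteasome subunit, 4.46 and 4.64 against 6.60, 7.84 and 7.37 CP10K (0.62, adjusted p = 0.403). The groups' libraries did not overlap for either gene. This was so for 6 of the 19 upward and 1 downward, against 13.8% and 12.7% of all tested genes. The list's median log2 difference was 0.16.

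Stress and activation genes were also described by count. Of 13 heat shock and chaperone genes, 5 were higher and 0 lower at an unadjusted p under 0.05, against 5.44% and 3.76% of all tested genes, with a median log2 difference of 0.45. Hspa8, a constitutive chaperone, held 27.2 and 19.4 against 36.5, 33.1 and 32.7 CP10K (0.56, adjusted p = 0.219). Of 21 tested immediate early genes, which respond to receptor signals and to tissue dissociation alike, 6 were higher and 0 lower, against the same 5.44% and 3.76%, with a median of 0.30. Dusp1, a phosphatase of MAP kinases, held 9.84 and 7.21 against 12.7, 14.98 and 16.2 CP10K (0.75, adjusted p = 0.219). No gene of either list passed the threshold in limma. B2m, Psmb8, Hspa8 and Dusp1, and Gzma below, were picked after their values were seen.

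Of 16 tested cytotoxic effectors 0 passed, and 2 were higher and 4 lower at an unadjusted p under 0.05, against 5.44% and 3.76% of all tested genes, with a median of -0.18. Ccl5 held 93.3 and 75.2 against 62.7, 53.1 and 62.8 CP10K (-0.49, adjusted p = 0.144). Gzma, a granzyme, held 8.97 and 3.25 against 2.61, 2.63 and 0 CP10K (-1.81, adjusted p = 0.339), from 12 cells in all. The value was -0.93 without replicate 3 labelled Oasl1-/-Apoe-/-, the library at 0, and -1.14 without Apoe-/- replicate 1, and it passed (-2.26, adjusted p = 1.2e-04) without replicate 2 labelled Oasl1-/-Apoe-/-. Summed natural killer cell markers, which include Gzma itself, were at 11.97 and 4.04 CP10K in the Apoe-/- libraries. They were at 5.16, 3.98 and 1.66 in the others. The sum is therefore no measure of natural killer cells separate from Gzma, and the part of such cells in these values was not tested. Of 81 ribosomal protein genes, 16 were lower and 5 higher at an unadjusted p under 0.05, against 3.76% and 5.44% of all tested genes, with a median of -0.06, and 0 passed. The libraries stood apart downward for 31 of the 81 and upward for 6, against 12.7% and 13.8%.

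Genes of the helper, regulatory and γδ lists stayed under the threshold as well. Tcrg-C1 held 0.371 and 0.974 against 1.94, 4.42 and 2.02 CP10K (1.46, adjusted p = 0.211). Tnfrsf9, the costimulatory receptor 4-1BB, picked after its values were seen, held 0.425 and 0.387 against 2.31, 1.46 and 2.58 CP10K (1.51, adjusted p = 0.136). Gata3 held 0.900 and 1.87 against 2.90, 2.02 and 2.54 CP10K (0.70, adjusted p = 0.543). Ifng, the type 1 cytokine, held 2.38 and 2.17 against 3.60, 2.94 and 2.08 CP10K (0.26, adjusted p = 0.814), and Cd4 itself 0.953 and 1.75 against 1.61, 0.713 and 1.40 CP10K (-0.10, adjusted p = 0.956). Of 19 T cell receptor signalling genes, 1 was higher and 1 lower at an unadjusted p under 0.05, against 5.44% and 3.76%, with a median of 0.00019.

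**Figure D4:**
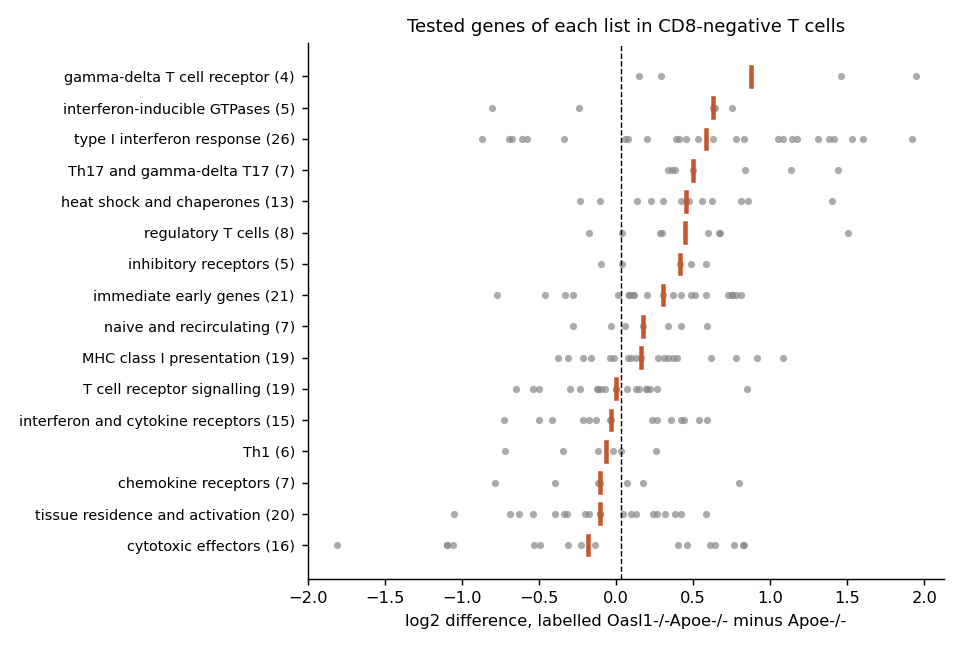
Log2 difference between the groups for each tested gene of 16 gene lists (grey points, with the number tested after the list's name), with the list's median as an orange bar and the median of all tested genes, 0.03, as a dashed line. The interferon list's median was 0.58 and that of cytotoxic effectors -0.18.

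In CD8 T cells of the same libraries, 94 of 2353 tested genes passed the threshold (3.99%). CD8 T cells numbered 429 against 191 members, so the numbers of calls are not compared. The difference of the genotype differences was tested within libraries over the 2106 genes at 0.5 CP10K or more in both classes. Of these, 0 passed in limma (0%), and 178 (8.45%) had an unadjusted p under 0.05. Tpt1 was at 68.7 and 75.2 against 42.4, 43.3 and 44.0 CP10K in CD8 T cells, where it fell by 0.73 (adjusted p = 1.46e-04), and its difference between the classes was -0.04 (SE 0.288).

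The interferon list was then set beside CD8 T cells. In CD8 T cells alone, 25 of its genes were tested, and 11 passed upward and 0 downward. Of all 2353 tested genes, 66 passed upward and 28 downward (3.99% in both directions together). Numbers of calls are again not compared between the classes. The list's median log2 difference was 0.59 over the 25 genes tested in CD8 T cells. It was 0.58 over the 26 tested in CD8-negative T cells, which are not all the same genes. For the difference between the classes 23 of its genes were tested and 0 passed. At an unadjusted p under 0.05, 0 were higher and 3 lower, against 84 and 94 of all 2106 tested genes (8.45% in both directions together). The median was -0.30 against -0.01 over all tested genes. Levels in both classes follow for 3 of its genes, picked after their values were seen. In the Apoe-/- libraries Ifi27l2a held 5.34 and 4.23 CP10K in CD8-negative T cells beside 1.503 and 1.01 in CD8 T cells. In the libraries labelled Oasl1-/-Apoe-/- it held 14.03, 7.43 and 12.99 beside 15.01, 14.6 and 15.1. Its log2 difference between the groups in CD8-negative T cells less that in CD8 T cells was -2.004 (SE 0.356), with an unadjusted limma p of 5.7e-04 that did not pass adjustment (adjusted p = 0.5505). Ly6a, the stem cell antigen Sca-1, held 3.83 and 4.24 beside 1.04 and 1.04 CP10K in the Apoe-/- libraries, and 10.1, 6.07 and 12.2 beside 5.32, 4.34 and 3.995 in the others. Ly6e, a related surface protein, held 10.6 and 10.3 beside 3.79 and 3.54 CP10K, and 14.03, 15.4 and 12.7 beside 5.43, 6.12 and 5.91. The classes were chosen by their CD8 values, and these levels are a description. Ccl5 went the other way in CD8 T cells, where it rose from 142.8 and 168.4 to 188.4, 221.7 and 220.6 CP10K (0.43, adjusted p = 0.0090), and its difference between the classes was -0.93 (SE 0.473, adjusted p = 0.6475).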

How the data were processed

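The 5 libraries were made with Chromium 3′ v2 chemistry. Per the study's methods and the labels, the authors mapped reads to mm10 with Cell Ranger 3.1.0, filtered cells with Seurat 4.0.3 and took out doublets by DoubletFinder. A doublet caller was therefore not applied again. As deposited, each value is the natural log of 1 plus the gene's UMIs per 10000 in that cell. Undoing the log gave sums of 10000 per cell and, divided by the cell's smallest value, whole numbers within 0.01 for 100% of nonzero values, which were taken as UMIs. Each cell was grouped by its library's label, and the library was the replicate.

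Levels were averaged over members and tested with limma 3.58.1 (R 4.3.3) with a mean-variance trend, and shares with an exact permutation test. Shares were computed in Python 3.11.15, and the fit was tested on simulated data. The members, gene lists and named genes were chosen with earlier results of these data known. Named were the genes of the rule, cell type markers, a fixed set of T cell and interferon genes, and the genes past the threshold, up to the 10 largest changes each way. Further genes, among them those that describe the subsets, lie outside these and were named with values in view. Coordinates came from GENCODE M21 (GRCm38). Smooth muscle cells served as background for shares. Alternatives covered offset, filter, scaling, summed UMIs, limma-voom, membership and leaving out each library. Thinning to 1000 UMIs used seed 1. Some genes, and a planned share of cells that needs them, are not reported here.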

Additional observations from a re-analysis of the deposited data

How the results depend on the processing

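The number of genes past the threshold, 3, depended on the processing. It was 9 with the filter at 0.2 CP10K, 5 with no filter and 10 on the mean of the deposited log values. It was 0 on summed UMIs per 10000 (202 at an unadjusted p under 0.05), 0 with limma-voom (155) and 0 in cells with a Cd4 UMI alone (162). Without the 48 members that held Trdc, Tcrg-C1, Tcrg-C2 or Tcrg-C4 it was 7, an alternative chosen after seeing the data. Of these genes, Tcrg-C2 and Tcrg-C4 were not specific to γδ cells. Leaving out 1 library gave 0 to 30. The lowest, 0, was without Apoe-/- replicate 1 or without the first library labelled Oasl1-/-Apoe-/-, the highest without the second. The cause was not tested. The interferon list's median log2 difference of 0.58 became 0.92 with an offset of 0.05 CP10K, 0.92 with limma-voom, 0.13 on the deposited log values, whose scale is smaller, and 0.17 in cells with a Cd4 UMI. Interferon list genes past the threshold numbered 2 with the filter at 0.2 CP10K, 1 with no filter, 2 on the deposited log values and 0 to 7 without 1 library. The share of all cells, 0.638 points higher, became lower (-0.512 points) among cells with a Ptprc UMI. The Cd4 share's difference of -0.525 points ranged from -4.79 to 3.74 without 1 library. Single genes also changed sign. Ly6e (-0.48), Ifi27l2a (-0.0945), Psmb8 (-0.83) and Ifng (-0.0554) turned negative in cells with a Cd4 UMI. With at least 3 of 4 T cell genes Ifng turned negative (-0.11) and Nkg7 positive (0.17). Without the 48 members named above, Nkg7 (0.0715) and Cd4 (0.0921) turned positive. Without 1 library, H2-K1 ranged from -0.21 to 0.13 and Cd4 from -0.41 to 0.22. No gene passed for the difference between the T cell classes in the alternatives run for it, which were the lower offset, the filter at 0.2 CP10K, summed UMIs, leaving out 1 library and the replicate block.

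Replicate numbers recur across the groups, but nothing says what they share. Deviations of same-numbered libraries correlated at 0.0701 and 0.114, for 2 pairs only. With the replicate number as a block, 21 genes passed, with 2 of them on the interferon list, and the shares kept their direction (0.673 points of all cells, -4.53 of T cells, -0.741 for Cd4 and 16.6 for γδ receptor transcripts). Cells with a Foxp3 UMI were not run, since Foxp3 was not analysed here. Precision was limited by 28 to 46 members a library at a median of 1525 UMIs.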
